A study of Mus musculus with 4 samples.

Results

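The genes described here are 10 markers of scavenging and alternatively activated macrophages, taken by symbol from the gene tables: Cd163, Lyve1, Stab1, Mrc1, Cd209f, Mgl2, Folr2, Cbr2, Msr1 and Marco. Each symbol matched 1 row, so the set is 10 of 22620 genes. They were followed in droplet single-cell RNA libraries of immune cells from MC38 tumours, a transplantable mouse colon carcinoma. The hosts were wild-type (WT) mice or knockout (KO) mice that lack 1 gene, with 2 libraries of each. The mice's age, sex and strain and the number of animals behind a library are not given in the sources used here and nor is whether tumour cells carried any change. The p-values below thus rest on differences among 4 libraries, part or all of which could be technical. Digested tumours had been enriched for CD45-positive cells on magnetic beads, and the study's title concerns antigen presentation by macrophages.

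Scavenger receptors are surface proteins with which macrophages bind and take up modified lipoproteins, dying cells, haemoglobin complexes, sugars and matrix fragments. In tissues the highest levels of several of them mark long-lived macrophages beside vessels and in connective tissue, and interleukin-4, interleukin-10, glucocorticoids and CSF1 raise others. In tumours the same genes are widely used to label macrophages described as alternatively activated, while freshly recruited monocytes carry few of them.

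The libraries held 9239 to 18324 barcodes and 94213071 to 130466357 UMIs (unique molecular identifiers, 1 per captured RNA), and 7305 to 13109 cells passed the filters, with medians of 8218 to 12886.5 UMIs. Cells were gated by genes outside the set: macrophages by C1qa, C1qb and C1qc, monocytes by Ly6c2, Plac8, Hp and Vcan, and type 2 conventional dendritic cells (cDC2) by Cd209a, Flt3, Dpp4, Zbtb46 and Kmo. Chil3 and Ear2 together gated a further small group. The macrophage gate held 4139, 4832, 7600 and 3963 cells in WT 1, WT 2, KO 1 and KO 2, and 3.92% to 4.39% of the cells that could fall on either side of it lay within 20% of its cut. All levels are counts scaled to 1000000 (CPM), here UMIs of the gene over all UMIs of the gate, and lists of 4 values are in the order WT 1, WT 2, KO 1, KO 2. Ptprc, the gene of CD45, stood at 378 to 444 CPM in it. Summed UMIs of 8 T and NK cell markers in the macrophage gate were 2.15 and 5.13 CPM in the WT libraries and 21.8 and 16.95 in the KO libraries, with 1 marker at 0 in WT 1 and none in the others. Those of 9 endothelial markers, a cell type that can carry Lyve1, Stab1 and Mrc1, were 19.2, 11.2, 25.7 and 27.1 in WT 1, WT 2, KO 1 and KO 2, with 1 or 2 at 0 in each library. The part of these cells in the results below was not tested.

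All 10 genes are protein coding in the GENCODE annotation of GRCm38, which is the mm10 build of the files. Cd163 lies at chr6:124304656-124330527, Cd209f at chr8:4102787-4105835, Cbr2 at chr11:120729489-120732114 and Marco at chr1:120474538-120505024. Of the last 500 bases of Cd209f transcripts, where 3' reads fall, 37.1% of 50-base words also occur in transcripts of its neighbour Cd209g. Reads that match both genes could thus affect the counts of either. For Cbr2 14.8% of such words occur in the predicted gene Gm11771, for Mgl2 9.82% occur in other transcripts including its neighbour Clec10a, and the other 7 genes shared under 1%. The promoters of the 4 genes on which the comparison of genotypes turned most are shown to let them be compared. Each runs 5' to 3' on the gene's strand and ends at the base before transcription begins, from the RefSeq start windows of GRCm38.p6 with bases annotated as transcribed left off, and capitals mark GAGGAA on either strand, the core bound by the macrophage factor PU.1 and other ETS proteins.
Cd163 (chr6:124304401-124304650, plus strand): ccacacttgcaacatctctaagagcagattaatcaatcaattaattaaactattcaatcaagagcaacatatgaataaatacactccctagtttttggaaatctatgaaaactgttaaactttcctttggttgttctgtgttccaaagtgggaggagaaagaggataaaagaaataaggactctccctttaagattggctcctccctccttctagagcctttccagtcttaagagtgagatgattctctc
Cd209f (chr8:4105836-4106014, minus strand): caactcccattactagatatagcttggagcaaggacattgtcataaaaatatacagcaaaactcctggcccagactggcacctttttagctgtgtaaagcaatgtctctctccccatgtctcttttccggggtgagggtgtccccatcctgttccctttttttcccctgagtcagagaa
Cbr2 (chr11:120732115-120732271, minus strand): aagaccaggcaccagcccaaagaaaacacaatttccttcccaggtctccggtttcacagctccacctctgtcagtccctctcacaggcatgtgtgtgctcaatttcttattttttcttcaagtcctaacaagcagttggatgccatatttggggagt
Marco (chr1:120505025-120505274, minus strand): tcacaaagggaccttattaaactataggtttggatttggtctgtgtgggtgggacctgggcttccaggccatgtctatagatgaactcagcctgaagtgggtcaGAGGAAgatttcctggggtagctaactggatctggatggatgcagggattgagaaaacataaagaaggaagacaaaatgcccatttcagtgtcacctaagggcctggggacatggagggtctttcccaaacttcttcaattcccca

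RefSeq start windows were found for 8 of the 10 genes, and Lyve1 and Msr1 had no entry. In the 250 bases before the RefSeq start, GAGGAA on either strand was present in Mrc1, which held 3 matches, and in Stab1, Cbr2, Mgl2 and Marco, which held 1 each. Among 32851 mouse promoter windows of that length 23.3% held it. The Cbr2 match began 79 bases before the RefSeq start, in bases that GENCODE annotates as transcribed, and is not in the stretch shown. TGCTGA, a MAF half-site, was present in Stab1 and Folr2 and in 16.1% of all windows. The STAT6 motif (TTC and GAA with any 4 bases between), the C/EBP motif TTGCNNAA, the glucocorticoid receptor motif (AGAACA and TGT with any 3 bases between) and the IRF motif (GAAA repeated after any 2 bases) were in none of these windows. Among all windows 5.85%, 9.56%, 0.368% and 2.98% held them. The Cd163 and Cd209f windows held none of the 6 motifs. A match of letters is a description of the window and shows no binding.

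The first comparison asked which cells carried the genes. With each library as a block, macrophages exceeded monocytes for all 10 genes in edgeR's quasi-likelihood test at an adjusted p under 0.05, the threshold used throughout, where 25.4% of all 11515 genes tested were higher and 51.0% passed in either direction. Mrc1, the mannose receptor CD206, was 3.28 ± 0.11 log2 units higher (log2 difference ± SE, n = 4 libraries per gate, adjusted p = 3.97e-13) and Folr2, the folate receptor beta, 4.27 ± 0.17 higher (adjusted p = 1.18e-13). Msr1, the class A scavenger receptor that binds acetylated lipoprotein, differed least, by 0.56 ± 0.07 (adjusted p = 2.63e-08). Msr1 stood at 379, 328, 424 and 366 CPM in monocytes and at 572, 524, 609 and 624 in macrophages. Monocytes thus carried most of the macrophage level of Msr1 and a smaller part of that of the rest of the set.

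Mgl2, a galactose-binding lectin also known as CD301b, had another order. It was highest in cDC2, at 1526, 1336, 501 and 639 CPM, and lower in macrophages, at 266, 189.7, 60.6 and 178, a difference of macrophages from cDC2 of -2.50 ± 0.27 log2 units (n = 4 libraries, edgeR adjusted p = 0.00193), in a comparison that 36.8% of 11453 genes passed. In migratory dendritic cells, gated by Ccr7, Fscn1, Cacnb3 and Nudt17, it stood at 334, 233, 135 and 305 CPM, also above macrophages (edgeR adjusted p = 4.94e-08, with 48.7% of 11470 genes passing). Macrophages held 59.6% to 70.1% of a library's Mgl2 UMIs and 73.0% to 77.7% of its Msr1 UMIs, but 86.6% or more of those of every other gene in the set. These shares also reflect that macrophages were 53.1% to 60.7% of cells. Cd163, with 13 UMIs in cDC2, did not pass between macrophages and cDC2 (1.22 ± 0.90 log2 units, edgeR adjusted p = 0.367). Its KO mean was 1.39 CPM in macrophages and 2.84 in cDC2. Cd209f, a mouse member of the DC-SIGN lectin family, had 0 of 3054680 UMIs in cDC2, so that its mean level in WT macrophages was at least 14.4-fold higher against a floor of 3 counts over the gate, or 0.982 CPM. The level in KO 1 macrophages, 0.724 CPM, lay below that floor, so no such bound holds in KO.

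**Figure D1:**
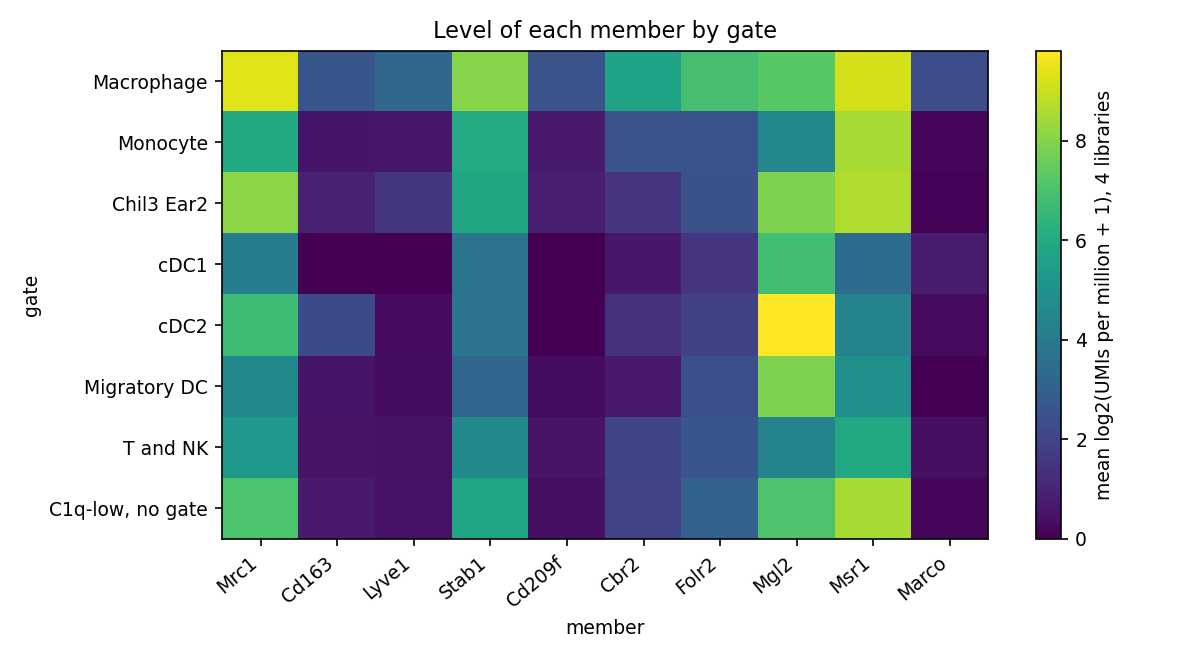
Mean over the 4 libraries of log2(CPM + 1) for each gene (columns) in each gate (rows). The brightest field is Mgl2 in cDC2, where its libraries lay between 501 and 1526 CPM, and Msr1 is bright in monocytes as well as macrophages.

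T and NK cells, which should lack these genes, gave a level that RNA from other cells can reach. There Msr1 stood at 64.4, 42.1, 83.3 and 63.6 CPM and Mrc1 at 55.2, 22.2, 45.1 and 30.8. Unthinned, 8.06% to 19.4% of T and NK cells had a UMI of Msr1 and at most 0.971% one of Cd163, Lyve1, Cd209f or Marco, at median depths of 3449 to 4083 UMIs. Levels of Msr1 in cDC2, at 10.7, 11.1, 52.1 and 25.5, were below those of T and NK cells in each library. The part of background in them was not tested. A further 1871 to 2528 cells per library fell in no gate, with C1q sums of 412 to 578 CPM. Msr1 stood at 309, 277, 503 and 412 in them, with both KO libraries above both WT libraries, and this group was not tested.

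Within macrophages, cells were scored for subsets with genes outside the set, and those highest for Fcna, Ednrb, Timd4, Gas6, Ccl8 and Igfbp4 are called resident-scored. They numbered 264, 109, 145 and 106, or 6.38%, 2.26%, 1.91% and 2.67% of macrophages. Against the other macrophages of the same libraries 7 of the 10 genes were higher in them. Of all 11588 genes tested 13.6% were higher and 31.2% passed in either direction. The scoring genes had been chosen as resident-like markers, so this outcome was partly set in advance by that choice. Cd209f differed by 7.09 ± 0.43 log2 units (n = 4 libraries, adjusted p = 7.47e-04), Lyve1, a hyaluronan receptor of lymphatic vessels and of macrophages along vessels, by 6.83 ± 0.40 (adjusted p = 9.09e-04) and Cd163, the haemoglobin-haptoglobin receptor, by 5.00 ± 0.61 (adjusted p = 0.0109). Cbr2, a carbonyl reductase used as a mark of mouse tissue macrophages, differed by 3.70 ± 0.22, Folr2 by 2.51 ± 0.25, Mrc1 by 1.71 ± 0.12, and Stab1, a receptor for acetylated lipoprotein and the matrix protein SPARC, by 1.68 ± 0.12. Msr1 was lower in them, with a difference of -0.49 ± 0.10 (adjusted p = 0.00301), while Mgl2 and the collagen-domain receptor Marco did not pass. These few cells held 67.1% to 84.8% of all macrophage Lyve1 UMIs and 55.7% to 88.6% of those of Cd209f, but 1.22% to 3.35% of those of Msr1.

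The genes also met in single cells. Of macrophages with a Lyve1 UMI 86.2%, 82.1%, 64% and 78.2% also had a Cbr2 UMI, against 30.8%, 21.9%, 10.1% and 14% of the rest. Cd209f was found in 23.1%, 30.3%, 8% and 14.5% of Lyve1-positive cells and in 0.145% to 1.26% of the rest. Msr1 went the other way in WT 1, WT 2 and KO 2, where 82.2%, 84.8% and 76.4% of Lyve1-positive cells had a UMI against 93.8%, 94.8% and 94.5% of the rest, but not in KO 1, where 24 of 25 had one. Depth differs between cells and is shared by both genes of a pair, so these shares are a description.

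Over 56 sums of 14 gates and 4 libraries, log2(level + 1) of Lyve1 and Cd209f correlated at r = 0.90, Mrc1 and Stab1 at 0.92 and Stab1 and Folr2 at 0.91, while Mgl2 correlated with no other gene of the set above 0.24. By the highest r over the same sums, the gene outside the set most like Cd209f was its neighbour Cd209g (r = 0.89), and those most like Cbr2 and Folr2 were Npl (0.95) and Scamp5 (0.95). For Msr1 it was the endocytic receptor Lrp1 (0.94), for Mrc1 Tpp1 (0.94) and for Mgl2 Colgalt1 (0.74). Sums of the same library share its depth, and subsets are parts of the same gate, so these values carry no test.

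KO and WT macrophages were then compared over libraries. Cd209f fell and Marco rose in KO, so that 1 gene passed in each direction. Of all 12444 genes tested 11.3% passed, 6.76% as higher and 4.57% as lower. Of the 8 that did not pass, Cd163, Lyve1, Cbr2, Mrc1, Stab1 and Mgl2 were lower in both KO libraries than in either WT library, and Msr1 was higher in both. Counting Cd209f and Marco, 7 genes of the set were lower and 2 higher without overlap of the groups, but so were 51.8% and 15.2% of all 12444 genes, or 67.0% together, and absence of overlap is therefore given below as a description of the levels alone. The median log2 difference was -0.58 over the 10 genes and -0.02 over all genes. WT 1 was the highest library for 8 of the 10 genes, and the share of all genes highest in WT 1 was not counted. In sums over a gate, fewer cells that carry a gene and less RNA of it per cell cannot be told apart.

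**Figure D2:**
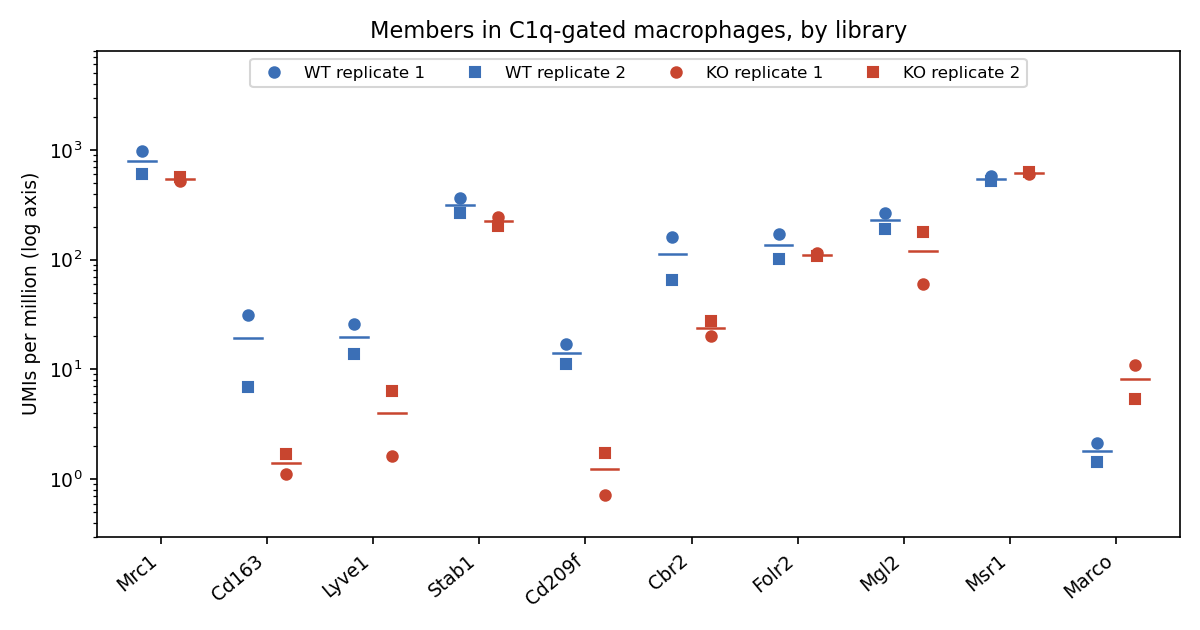
CPM (log axis) of the 10 genes in C1q-gated macrophages. Points are libraries (WT blue, KO red, circles replicate 1, squares replicate 2) and short lines are means of 2 libraries. The KO points of Cd209f (0.724 and 1.73) lie below its WT points (17.0 and 11.3), and those of Marco (11.01 and 5.42) lie above (2.15 and 1.43).

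Among the receptors for haemoglobin, hyaluronan and modified lipoprotein, Cd163 stood at 31.5, 6.89, 1.10 and 1.68 CPM. WT 1 was more than 4 times as high as WT 2, and the groups did not overlap. The log2 difference was -3.62 ± 1.06 (SE, n = 2 libraries per genotype) with an adjusted p of 0.174 in edgeR, and an adjusted p of 0.00375 in DESeq2. As each library was left out in turn, the difference ranged from -4.32 to -2.21. Lyve1 stood at 25.9, 13.9, 1.64 and 6.34 CPM, both KO libraries below both WT libraries, with a difference of -2.18 ± 0.87 (edgeR adjusted p = 0.262). Stab1 stood at 362, 266, 247 and 204, again without overlap, and differed by -0.32 ± 0.15 (edgeR adjusted p = 0.213).

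Of the lectins, Cd209f stood at 17.0, 11.3, 0.724 and 1.73 CPM, from 892, 773, 61 and 111 UMIs. The KO libraries were far below the WT libraries. It fell by 3.40 ± 0.46 on the log2 scale (n = 2 per genotype, edgeR adjusted p = 0.0223), a call that was lost without WT 1 and with no filter on low counts (adjusted p = 0.0966). It was also lost in limma with the subsets described below and the cells of no subset, 8 groups, weighted equally (-3.05, adjusted p = 0.136). Mrc1 stood at 987, 598, 517 and 568 CPM, where WT 2 was nearer to the KO libraries than to WT 1. Its difference of -0.39 ± 0.22 did not pass (edgeR adjusted p = 0.310), and ranged from -0.66 to -0.029 as each library was left out. Mgl2 stood at 266, 189.7, 60.6 and 178 CPM, where KO 2 lay just below WT 2 and far above KO 1. Its difference of -0.78 ± 0.68 did not pass (edgeR adjusted p = 0.555). As each library was left out, it ranged from -1.76 to -0.19.

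Cbr2 stood at 160.7, 65.2, 19.998 and 27.4 CPM, with no overlap. It differed by -2.09 ± 0.56 (n = 2 per genotype) with an adjusted p of 0.139 in edgeR and of 0.00860 in DESeq2. As each library was left out in turn, the difference ranged from -2.56 to -1.35. Folr2 stood at 172, 100.3, 114 and 109 CPM, where the groups overlapped. Its difference was -0.13 ± 0.24 (edgeR adjusted p = 0.773), turned to 0.26 without WT 1 and was -0.43 without WT 2.

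The class A scavenger receptors were the genes with higher KO levels. Msr1 stood at 572, 524, 609 and 624 CPM, KO above WT in both libraries, and differed by 0.32 ± 0.10 (n = 2 per genotype), with an adjusted p of 0.0788 in edgeR and of 0.00785 in DESeq2. Marco stood at 2.15, 1.43, 11.01 and 5.42 CPM, from 113, 98, 928 and 348 UMIs. It rose by 2.37 ± 0.42 (edgeR adjusted p = 0.0359), and the call was lost without WT 1 (adjusted p = 0.167) or WT 2 (adjusted p = 0.157), with no filter on low counts (adjusted p = 0.119), with at most 10% mitochondrial UMIs (0.0534) and without the highest Scrublet scores (0.0557). With subsets weighted equally the Marco difference was 0.24 (limma adjusted p = 0.835). With total UMIs in place of TMM scaling, the median of all genes moved to -0.17 and the calls over all genes went from 841 higher and 569 lower to 572 and 1372. No gene of the set changed direction with that scaling, under which Cd209f (-3.56) and Marco (2.21) still passed.

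The share of macrophages with a UMI was compared after every cell was thinned to 2000 UMIs. Cd163 was seen in 3.50%, 1.32%, 0.211% and 0.505% of cells, with exact 95% binomial intervals of 2.96% to 4.11%, 1.02% to 1.69%, 0.120% to 0.342% and 0.309% to 0.778%, which cover counting error only. Lyve1 was seen in 2.996%, 1.55%, 0.158% and 0.631% and Cd209f in 1.33%, 1.12%, 0.0658% and 0.404%. Marco was seen in 0.290%, 0.186%, 0.763% and 0.580%. The shares of Cd163, Lyve1 and Cd209f were highest in WT 1 and lowest in KO 1, and that of Marco was highest in KO 1 and lowest in WT 2. Thinned T and NK cells, numbering 206, 310, 1492 and 771, had Cd163 in 0.971%, 0%, 0% and 0.1297% and Marco in 0.485%, 0%, 0.0670% and 0% of cells. Those shares rest on 0 to 2 cells in each library, so their intervals are wide. The Marco share of T and NK cells in WT 1 was 1 of 206 cells, with an exact interval of 0.0123% to 2.67%, and the macrophage share of 0.290% in that library lies within it, so the shares of that library cannot be told apart at this depth. In CPM, Marco in T and NK cells was 0.920, 0, 0.298 and 0.227. For Cd163 in KO 1, 0 of 1492 T and NK cells allows up to 0.201% by a floor of 3 counts and up to 0.247% by the exact interval, and the macrophage share of 0.211% lies between these limits. The KO 1 macrophage shares of Lyve1 (0.158%) and Cd209f (0.0658%) lie below that floor. T and NK cells of KO 1 thus cannot show whether those shares exceed background. Unthinned shares were 7.59%, 2.59%, 0.605% and 1.56% for Cd163 and 0.580%, 0.559%, 1.91% and 1.49% for Marco.

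**Figure D3:**
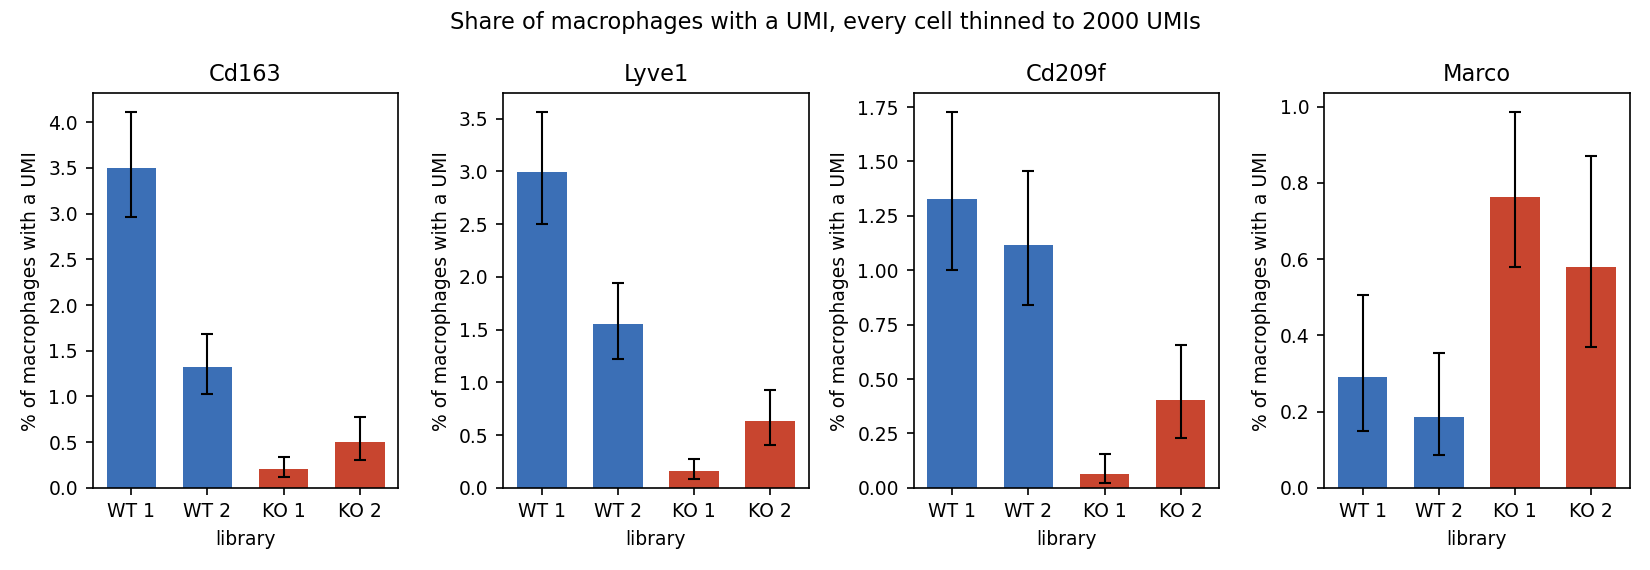
Percent of C1q-gated macrophages with at least 1 UMI of each gene after thinning every cell to 2000 UMIs, by library. Bars are shares and whiskers exact 95% binomial intervals. The Cd163 shares were 3.50% and 1.32% in WT and 0.211% and 0.505% in KO, and the Marco shares were 0.290% and 0.186% in WT and 0.763% and 0.580% in KO.

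Subsets took different shares of WT and KO macrophages. Cells scored for Fcrls, Cx3cr1 and Olfml3 made up 15.9%, 14.4%, 1.36% and 1.06%, while those scored for Cxcl9 and Cxcl10 made up 2.37%, 4.78%, 15.1% and 12.4%. The 10 genes were therefore also compared within each subset. A subset cut from scores is a range of cells and no type, and 6.50% to 9.29% of macrophages scored within 0.1 of the cut.

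In resident-scored cells 4 of the 10 genes fell in KO and 1 rose, where 2.26% of all 8453 genes tested fell, 2.45% rose and 4.71% changed in either direction. Cd163 stood at 314, 263, 23.8 and 33.5 CPM, with both KO libraries far below both WT libraries. It fell by 3.20 ± 0.19 (n = 2 per genotype, edgeR adjusted p = 1.96e-09). Cbr2 stood at 1029, 917, 290.5 and 351, KO well below WT, and fell by 1.46 ± 0.14 (edgeR adjusted p = 2.57e-06). Both calls were kept under every alternative run in this subset. Folr2 fell from 860.5 and 1018 to 486 and 534, by 0.74 ± 0.14 (adjusted p = 0.00303), and Mrc1 fell from 2862 and 2742 to 1684 and 1979.8, by 0.47 ± 0.13 (adjusted p = 0.0475).

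Msr1 rose in the same cells, from 411 and 398 to 587 and 525 CPM, by 0.60 ± 0.14 (edgeR adjusted p = 0.0142). The Folr2, Mrc1 and Msr1 calls were lost without KO 1 (adjusted p = 0.236, 0.402 and 0.316) and without KO 2 (0.0695, 0.132 and 0.0556), and the Mrc1 call also without WT 1 or WT 2 (0.228 and 0.167). In DESeq2 the Mrc1 and Msr1 calls were lost too (adjusted p = 0.217 and 0.0721), as was that of Mrc1 with doubled cuts of the gates (0.0806), without the highest Scrublet scores (0.0682) or with at least 1000 UMIs per barcode (0.0715), and that of Msr1 with total UMIs in place of TMM (0.0631). Lyve1, at 446, 639, 84.5 and 208 CPM, and Cd209f, at 323, 575, 24.6 and 53.4, were lower in both KO libraries but did not pass (differences of -1.76 ± 0.59 and -3.39 ± 0.60, edgeR adjusted p = 0.378 and 0.158), though Cd209f passed in DESeq2 (adjusted p = 5.05e-05). Stab1, at 968, 954, 797 and 910.2, differed by -0.03 ± 0.14 (adjusted p = 0.9502). Of the scoring genes themselves, Ednrb, the endothelin receptor B, stood at 318, 309.9, 27.5 and 22.1 CPM in these cells and Ccl8 at 12312, 10231, 10044 and 10693. Fcna stood at 437, 505, 215 and 268, Gas6 at 907, 871, 488 and 619, Igfbp4 at 408, 391, 424 and 453 and Timd4 at 4.90, 9.97, 20.2 and 2.29. Levels of Ednrb, Fcna and Gas6, which are 3 of the 6 scoring genes, were thus lower in both KO libraries and those of Igfbp4 higher, and whether the score picked the same kind of cell in both genotypes was not tested.

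**Figure D4:**
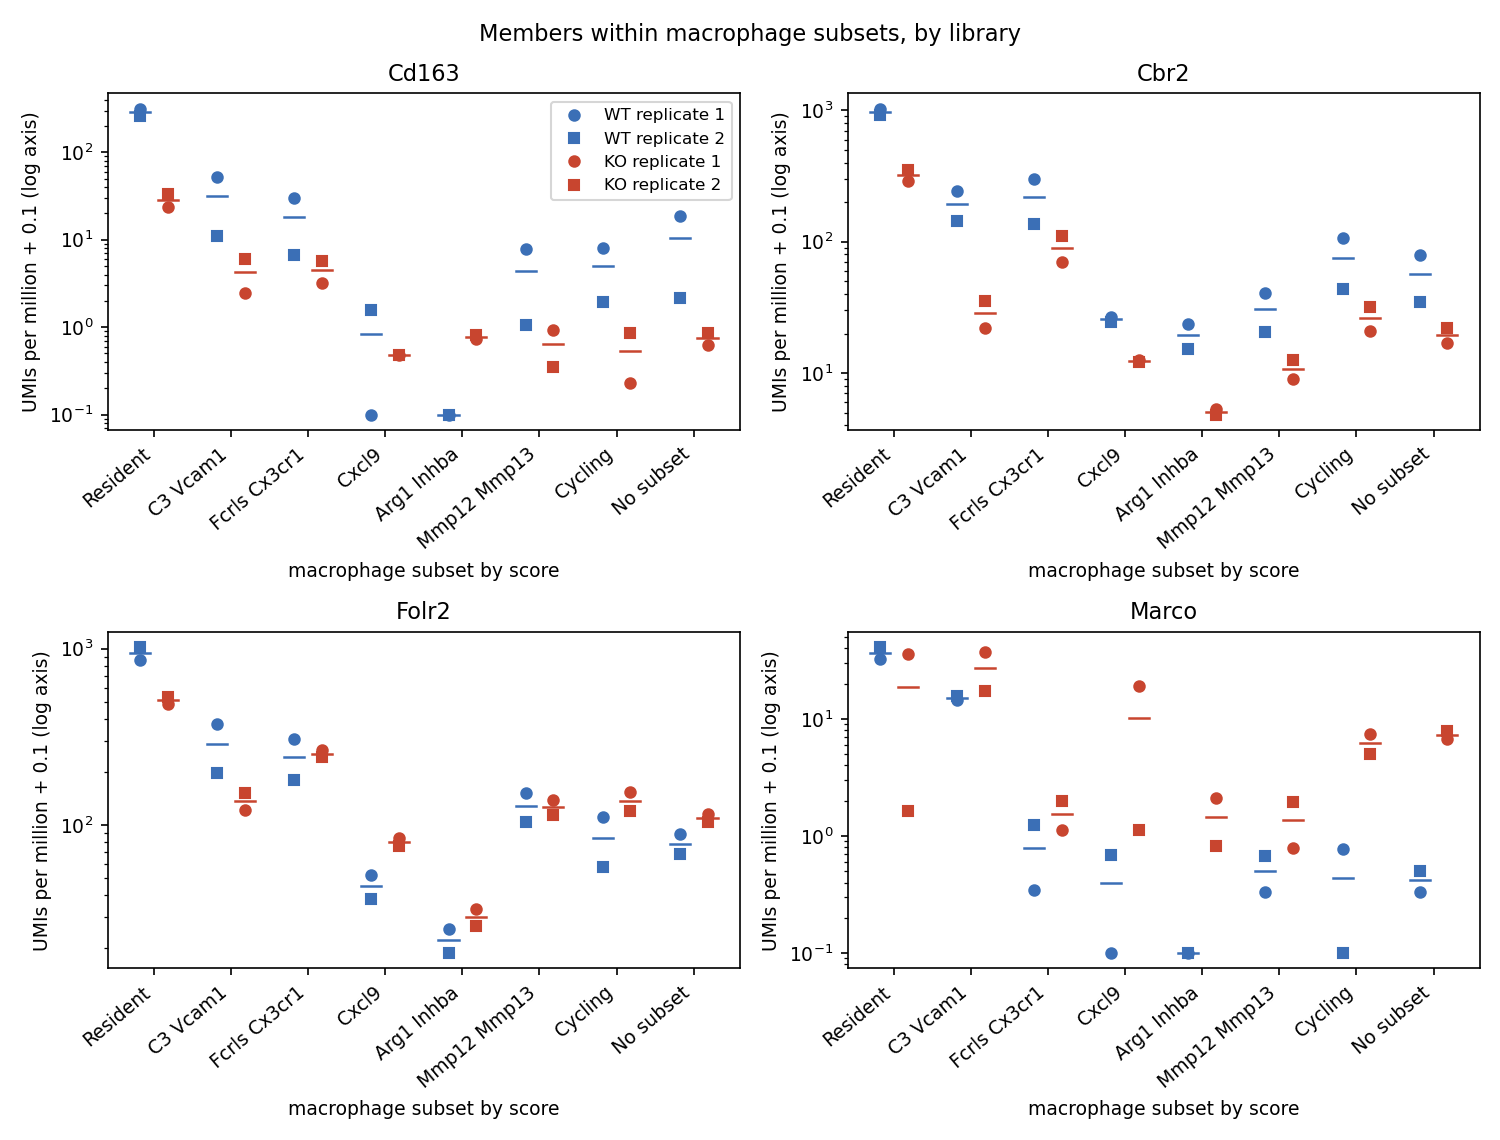
CPM + 0.1 (log axis) of Cd163, Cbr2, Folr2 and Marco in subsets of macrophages defined by score. Points are libraries (WT blue, KO red, circles replicate 1, squares replicate 2) and short lines are means of 2 libraries. In resident-scored cells the KO points of Cd163 (23.8 and 33.5) lie below the WT points (314 and 263), while in cells of no subset those of Marco (6.66 and 7.72) lie above (0.236 and 0.402).

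Cbr2 fell in 3 further subsets. In cells scored for C3 and Vcam1 it went from 245 and 144 CPM to 21.9 and 35.2, by 2.65 ± 0.32 (n = 2 per genotype, edgeR adjusted p = 0.00915), as 1 of 3 genes of the set that fell there with none that rose, against 6.79% of 9482 genes called. In cells scored for Arg1 and Inhba it went from 23.4 and 15.1 to 5.19 and 4.73 (edgeR adjusted p = 0.0147), the only gene of the set to pass there, against 2.27% of 9513 genes. In the Cxcl9 subset it went from 26.7 and 24.2 to 12.5 and 12.1 (edgeR adjusted p = 0.00710), where 1 gene of the set fell and 2 rose against 6.79% of 10111 genes called. In T and NK cells Cbr2 had a mean of 8.61 CPM in WT (SD 7.35) and 1.16 in KO (SD 0.04), without overlap. Its background level was thus lower in KO too, and the part of background in these calls was not tested. Leaving out a library ended the Arg1 Inhba call without KO 1 or KO 2 (adjusted p = 0.0555 and 0.0815), as did doubled cuts (0.143), and the Cxcl9 call without WT 1 or WT 2 (0.0607 and 0.113), and DESeq2 did not make the latter (adjusted p = 0.0580). Lyve1 and Stab1 also fell in C3 Vcam1 cells, from 11.4 and 4.75 to 1.05 and 1.25 CPM (adjusted p = 0.00951) and from 648 and 572 to 375 and 314 (adjusted p = 0.00747). Lyve1 passed the filter on low counts there through the WT libraries alone, so its direction followed from the filter. Neither call held without WT 1 (adjusted p = 0.268 and 0.0520) or KO 2 (0.167 and 0.110), nor that of Lyve1 without KO 1 (0.269). In the Fcrls subset Mgl2 fell from 192 and 131 to 71.4 and 85.0 (-0.9999 ± 0.20, edgeR adjusted p = 0.0126), the only gene of the set to pass there, against 1.59% of 10020 genes. That call was lost without WT 1 (adjusted p = 0.0542), KO 1 (0.271) or KO 2 (0.164). Msr1 passed in neither of these 2 subsets. In C3 Vcam1 cells its mean was 548 CPM in WT and 424 in KO, lower without overlap (-0.22 ± 0.13, edgeR adjusted p = 0.382). In the Fcrls subset it differed by -0.01 ± 0.14 (edgeR adjusted p = 0.988). In cells scored for Mmp12 and Mmp13 none of 6 genes tested passed in edgeR, where 4.48% of 10116 genes were called, while 1, Cbr2, passed in DESeq2. At an unadjusted edgeR p under 0.05, 1 was lower, and the share of all genes at that threshold was not counted.

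Folr2 moved in opposite directions in different subsets. In Cxcl9-scored cells it rose from 51.9 and 37.8 CPM to 84.7 and 76.4, by 1.01 ± 0.15 (n = 2 per genotype, edgeR adjusted p = 0.00124), and in cells of no subset from 88.4 and 68.0 to 116 and 104, by 0.57 ± 0.12 (adjusted p = 0.0129). In cells of no subset Folr2 and Marco rose and Lyve1 and Cd209f fell, against 9.42% of 11598 genes called. These calls of Folr2 were lost without WT 2 in Cxcl9-scored cells (adjusted p = 0.0803) and without KO 1 (adjusted p = 0.0526), with total UMIs (0.0618) or with doubled cuts (0.0761) in cells of no subset. Msr1 also rose in Cxcl9-scored cells, from 479 and 459 to 577 and 556 (0.37 ± 0.10, edgeR adjusted p = 0.0415), a call lost without each library in turn (adjusted p = 0.123, 0.165, 0.298 and 0.0933), in DESeq2 (0.0580), with total UMIs (0.111) and without the highest Scrublet scores (0.0560). The KO effect of Folr2 in resident-scored cells differed from that in Cxcl9-scored cells by -1.74 ± 0.19 in a fit with the difference of effects as its own term (edgeR adjusted p = 1.45e-05, where 4.11% of 9506 genes passed). This pair is 1 of 4 pairs of groups whose effects were compared after the first results were seen. Folr2 also differed between resident-scored cells and cells of no subset, by -1.28 ± 0.18 (edgeR adjusted p = 0.00246, where 4.87% of 11769 genes passed).

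Marco UMIs were spread over subsets in other proportions in the 2 genotypes. Resident-scored cells held 69.9% and 45.9% of WT macrophage Marco UMIs and 5.28% and 0.575% of those in KO, at 32.3, 40.8, 35.4 and 1.52 CPM, so that KO 1 was level with WT and KO 2 was not. In WT, 12 of 24 and 11 of 27 Marco-positive macrophages also had a Lyve1 UMI, against 2 of 145 and 3 of 59 in KO. Of macrophages without a Marco UMI, 5.71% and 2.79% had one of Lyve1 in WT and 0.309% and 1.33% in KO, so the Lyve1 share was lower in those as well. In cells of no subset it rose from 0.236 and 0.402 CPM to 6.66 and 7.72, by 4.50 ± 0.28 (n = 2 per genotype, edgeR adjusted p = 4.54e-06), and this call was kept under every alternative run. In cycling cells, scored for Mki67, Top2a, Birc5 and Cdk1, 6 and 0 UMIs in WT stood beside 57 and 46 in KO, and the rise passed in edgeR (adjusted p = 0.00315) but not in DESeq2 (adjusted p = 0.165). Marco entered that test through the KO libraries alone, so the direction followed from the filter. Msr1 rose there, from 510 and 427 CPM to 592 and 542 (0.43 ± 0.10, edgeR adjusted p = 0.0167), the only gene called in cycling cells beside Marco, against 13.2% of 10813 genes called. That Msr1 call was lost without WT 2 (adjusted p = 0.0536), KO 1 (0.262) or KO 2 (0.127) and with total UMIs (0.0755). Lyve1 and Cd209f fell in cells of no subset, from 2.75 and 3.13 CPM to 0.234 and 0.841 and from 0.943 and 2.18 to 0.0584 and 0.306 (edgeR adjusted p = 0.0155 and 0.0358). T and NK cells had Cd209f at a mean of 0.920 CPM in WT (SD 1.30) and 0.188 in KO (SD 0.055). They had Lyve1 at 0.853 (SD 1.21) and 0.113 (SD 0.160). The Cd209f level of WT 1 was thus near background, and the part of background in both calls was not tested. The Lyve1 call was lost with halved or doubled cuts (adjusted p = 0.154 and 0.378) and with at most 10% mitochondrial UMIs (0.0834). Cd209f entered that test through the WT libraries alone, and its call was lost without WT 2 (adjusted p = 0.0585) or KO 1 (0.0693), with doubled cuts (0.0845), without the highest Scrublet scores (0.0694) and with at least 1000 UMIs (0.0768). Of Marco in the Cxcl9 subset 249 UMIs came from KO 1 and 8 from KO 2.

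Monocytes numbered 208, 151, 719 and 466. Of the 10 genes 6 could be tested there and none passed in edgeR, against 2.90% of 8402 genes. DESeq2 called 0 of 4 with an adjusted p. At an unadjusted edgeR p under 0.05, 1 was higher and 2 were lower, and the share of all genes at that threshold was not counted. Folr2, the higher one, passed the filter on low counts through KO alone and Cbr2, one of the lower ones, through WT alone. Summed C1q genes in the monocyte gate stood at 305, 381, 663 and 496 CPM, so they moved with genotype, and their part in the monocyte results was not tested. Mrc1 stood at 78.1, 80.6, 55.5 and 47.4 CPM, without overlap, and differed by -0.57 ± 0.17 (n = 2 per genotype, edgeR adjusted p = 0.0754). It passed with total UMIs in place of TMM (adjusted p = 0.0455), with no filter on low counts (0.0384) and with halved cuts of the gates (-0.86, adjusted p = 0.0102). T and NK cells had Mrc1 at a mean of 38.7 CPM in WT (SD 23.4) and 38.0 in KO (SD 10.1). The KO monocyte levels were thus near background, whose part in this difference was not tested. Msr1 differed by 0.20 ± 0.13 (adjusted p = 0.534). For none of the 10 genes did the KO effect in macrophages pass as different from that in monocytes in edgeR's test of the difference, which 2.13% of 11965 genes passed. Cd163, Lyve1, Cd209f and Marco had only 3, 5, 6 and 2 UMIs over all monocytes, so that test could not decide for them.

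Mgl2 fell in cDC2, of which there were 97, 82, 123 and 54 cells. From 1526 and 1336 CPM in WT it went to 501 and 639 in KO, so that both KO libraries were far below both WT libraries. It fell by 1.35 ± 0.18 on the log2 scale (n = 2 per genotype, edgeR adjusted p = 2.26e-08). Of 4 genes tested there Mgl2, Mrc1 and Msr1 passed, against 4.29% of 6969 genes. Mrc1 fell from 165 and 133 to 62.8 and 95.8 (-0.97 ± 0.22, adjusted p = 0.00152), a call lost without WT 1 (adjusted p = 0.0976) or KO 1 (adjusted p = 0.182), in DESeq2 (adjusted p = 0.163) and with doubled cuts (0.202). The part of background in the Mrc1 call, with T and NK levels as given above, was not tested. Msr1 passed as higher (1.92 ± 0.40, edgeR adjusted p = 5.52e-04) on levels no higher than those of T and NK cells, having entered the test through KO alone, and not without KO 1 (adjusted p = 0.479) or with halved cuts (0.257). For Msr1 the KO effect in macrophages differed from that in cDC2 (-1.66 ± 0.38, edgeR adjusted p = 0.00190, where 2.17% of 11954 genes passed). That difference rests on the same low cDC2 counts, and the part of background in it was not tested. Summed C1q genes in the cDC2 gate stood at 131, 165, 400.3 and 381 CPM, and monocyte markers at 527, 743, 1535 and 909, so both moved with genotype, and their part in these results was not tested.

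With the cuts of all gates halved, the Mgl2 difference in cDC2 was -0.61 (edgeR adjusted p = 0.0571). In cells gated by Chil3 and Ear2, numbering 237, 75, 42 and 59, Mgl2 went the other way. It rose from 144 and 220.2 CPM to 296 and 350.2 (0.94 ± 0.19, adjusted p = 0.00166, against 3.39% of 7012 genes called). That call was lost without WT 1 (adjusted p = 0.159) and with halved or doubled cuts (adjusted p = 0.993 and 0.121). The KO effect on Mgl2 differed between Chil3 Ear2 cells and cDC2 by 2.30 ± 0.21 (edgeR adjusted p = 1.22e-07, where 0.758% of 7784 genes passed). That difference was not rerun under the alternatives. Median depths of Chil3 Ear2 cells were 13084, 13105, 5356.5 and 9843 UMIs, lower in both KO libraries. In migratory dendritic cells none of 3 genes tested passed in edgeR, against 1.73% of 5261 genes. DESeq2 gave an adjusted p for 1 and did not call it. At an unadjusted edgeR p under 0.05, 1 was higher, and the share of all genes at that threshold was not counted. Type 1 conventional dendritic cells were too few to test, at 13 to 27 per library, and held 309, 63.2, 208 and 39.3 CPM of Mgl2.

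**Figure D5:**
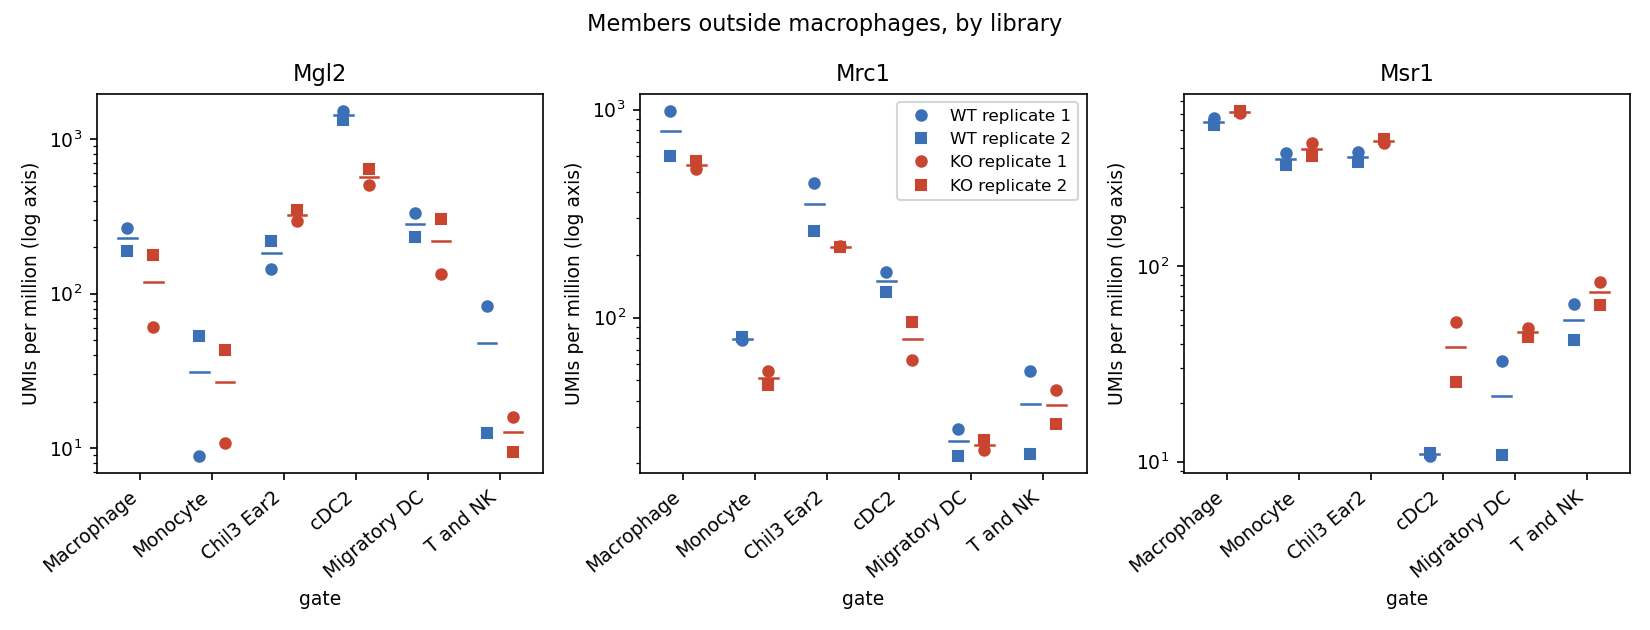
CPM (log axis) of Mgl2, Mrc1 and Msr1 by gate. Points are libraries (WT blue, KO red, circles replicate 1, squares replicate 2) and short lines are means of 2 libraries. The KO points of Mgl2 in cDC2 (501 and 639) lie below the WT points (1526 and 1336), and T and NK cells show the level that background reached, such as 42.1 to 83.3 for Msr1.

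A list of 29 other scavenger and endocytic receptors set the 10 genes beside their relatives. Of 22 that could be tested in macrophages, 5 rose and 7 fell in KO in edgeR, where 6.76% of all genes rose and 4.57% fell, with a median log2 difference of 0.13 against -0.02 over all genes. Those that fell included the CD209 lectins Cd209d, from 3.51 and 2.39 CPM to 0.202 and 0.467 (-3.01 ± 0.39, n = 2 per genotype, adjusted p = 0.00577), and Cd209g, from 6.25 and 4.75 to 0.344 and 0.685 (-3.29 ± 0.32, adjusted p = 0.00219). The complement receptor Vsig4 fell from 5.37 and 2.30 to 0.142 and 0.296 (adjusted p = 0.0130), Axl, a receptor for apoptotic cells, from 162 and 166 to 66.2 and 81.1 (adjusted p = 0.00379), and Scarb1, Cd209b and Cd5l also fell, the last 2 of which entered the test through WT alone. The risers were Clec4n, the lectin dectin-2, from 563 and 732 to 1097 and 1079 (adjusted p = 0.0134), Clec7a, dectin-1, from 372 and 454 to 562 and 733 (adjusted p = 0.0347), the lipid receptor Cd36, Cd68 and Scarf1.

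All 20 markers of alternative activation listed outside the set could be tested in macrophages, and 2 rose and 1 fell. These 3 of 20 stand beside 11.3% of all genes called, so the list as a whole is near the background. Pdcd1lg2, the gene of the PD-1 ligand PD-L2, rose from 9.22 and 7.21 CPM to 18.1 and 26.2 (1.59 ± 0.21, n = 2 per genotype, edgeR adjusted p = 0.0102) and the chemokine Pf4 rose from 2553 and 2878 to 4436 and 3569 (adjusted p = 0.0254). Irf4, a factor needed for interleukin-4 responses, fell from 4.48 and 3.23 to 1.13 and 1.77 (-1.26 ± 0.27, adjusted p = 0.0255), and the median was -0.25. Of 21 genes for upstream signals 19 could be tested. Il2rg, the shared cytokine receptor chain, rose from 44.9 and 48.7 to 114.7 and 83.2 (1.23 ± 0.16, adjusted p = 0.00702), Klf4 rose, Irf4 fell, and the median was 0.21, again beside 11.3% of all genes called. In monocytes, where 2.90% of all genes were called, Clec7a and Clec4n rose and Clec10a fell among 14 scavenger receptors tested. In cDC2, where 4.29% were called, Clec7a, Cxcl16 and Scarb2 rose and Cd209d fell among 14. Of 14 alternative activation markers tested in monocytes, Pf4 rose from 90.3 and 130 CPM to 367 and 318 (1.71 ± 0.17, edgeR adjusted p = 9.59e-06), and Clec10a and Trem2 fell. Ccl22 was also called, but it had 0 CPM in both WT libraries and entered the test through KO alone. Of 14 such markers in cDC2, Arg1, Ccl8, Tgm2 and Pf4 rose, Ccl8 from 43.0 and 28.4 to 135 and 140.5 (1.93 ± 0.25, adjusted p = 5.57e-09). In macrophages Pf4 stood at 2553 to 4436 CPM, Ccl8 at 449 to 1769 and Arg1 at 3117 to 5366, and the C1q sums of both gates, given above, were higher in both KO libraries. The part of macrophage RNA in these calls was not tested. None of 15 upstream genes passed in monocytes in edgeR. At an unadjusted edgeR p under 0.05 there were 5, and the share of all genes at that threshold was not counted. Tsc22d3, a glucocorticoid-induced gene, rose among 13 in cDC2. Cd209a, Chil3, Arg1, Timd4, Fcna, Ednrb, Gas6 and Ccl8 in these lists also served in gates or scores.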

How the data were processed

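Immune cells of MC38 tumours were profiled in 4 droplet libraries, 2 from WT and 2 from KO mice; the deleted gene and its level are not reported here. The deposited values are unnormalised UMI counts per gene and barcode. The submitters' processing notes name Cell Ranger 5.0.1, Seurat 3.15 and the mm10 build, without giving the role of each. The lowest deposited barcode held 500 UMIs, and the sources used here do not give how the genes were selected.

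Cells were kept from 2000 UMIs and 200 genes upwards and up to 20% mitochondrial UMIs, and were gated by UMIs of marker genes per 10000, with the C1q cut at 20. Macrophages were assigned to the subset with the highest mean z score, if that was at least 1. Counts were summed per library and gate and tested with edgeR 4.0.16 (quasi-likelihood, TMM, filterByExpr, Benjamini-Hochberg over all genes tested, R 4.3.3), in gates with at least 20 cells in each library. DESeq2 1.42.0 was an alternative. The alternative with subsets weighted equally was tested with limma 3.58.1 on log2 of the mean CPM + 1, so weights and test changed together. Scrublet called 1, 0, 0 and 1 barcodes, under 0.5%, and so did not work; an alternative left out the 601 to 2369 barcodes with the highest scores. Pairs of libraries shared 22 to 51 barcodes. The tests were tried on simulated data first. The genes and lists were chosen with earlier results of these data known, genes of the lists being named where they passed and the gene most like a member by the highest r.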

Additional observations from a re-analysis of the deposited data

Results flagged for a closer look

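The effect of genotype was compared between 5 pairs of groups of cells by a test of the difference itself, and 6 of 44 tests of genes of the set passed. Of all genes 2.13% passed for macrophages against monocytes, where none of the set did, 2.17% for macrophages against cDC2, 0.758% for Chil3 Ear2 cells against cDC2, 4.87% for resident-scored cells against cells of no subset and 4.11% for resident-scored against Cxcl9-scored cells. Cd163, Lyve1, Cd209f and Marco had 2 to 6 UMIs over all monocytes, too few for the comparison with monocytes to decide. On the log2 scale and in edgeR with Benjamini-Hochberg adjustment, the Msr1 effect in macrophages minus that in cDC2 was -1.66 (adjusted p = 0.00190). The cDC2 levels behind it lay below those of T and NK cells. The part of background in that difference was not tested, and nothing is concluded from it. The Mgl2 effect in Chil3 Ear2 cells minus that in cDC2 was 2.30 (adjusted p = 1.22e-07). Neither effect behind it passed with halved cuts of the gates, and the difference was not rerun under the alternatives. The Folr2 effect in resident-scored cells was lower than that in cells of no subset (-1.28, adjusted p = 0.00246) and in Cxcl9-scored cells (-1.74, adjusted p = 1.45e-05).

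The Mgl2 effect in resident-scored cells minus that in Cxcl9-scored cells was 1.29 (adjusted p = 0.0376), with Mgl2 at 136, 96.0, 95.4 and 114 CPM in the former and 296, 212, 63.7 and 141 in the latter, in the order WT 1, WT 2, KO 1, KO 2. The same difference for Marco was -5.45 (adjusted p = 1.45e-05), where Cxcl9-scored cells had 249 Marco UMIs in KO 1 and 8 in KO 2, and resident-scored cells 49 and 2. These pairs of groups were chosen after earlier results had been seen.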

How the results depend on the processing

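Over 14 alternatives, Cd163 and Cbr2 in macrophages passed with DESeq2 (-3.60, adjusted p = 0.00375, and -2.07, 0.00860) and with subsets weighted equally (-2.93 and -1.61), Msr1 with DESeq2 (0.33) and Folr2 with equal weights (-0.39). Cd209f did not pass with no filter on low counts (-3.40), with equal weights (-3.05) or with the replicate block (-3.42, adjusted p = 0.0701). Marco did not pass with no filter (2.37), at most 10% mitochondrial UMIs (2.36), without the highest Scrublet scores (2.50) or with equal weights (0.24). The cause was not tested. The replicate block gave 1220 calls over all genes instead of 1410, but same-numbered libraries did not deviate together (r = -0.0121 over 12444 genes), so the numbers were not taken as a pairing.

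Leaving out each library in turn gave 714 (without WT 1) to 1796 calls. The differences ranged from -0.66 to -0.029 for Mrc1, -4.32 to -2.21 for Cd163, -3.44 to -1.48 for Lyve1, -0.49 to -0.12 for Stab1, -4.13 to -2.86 for Cd209f, -2.56 to -1.35 for Cbr2, -0.43 to 0.26 for Folr2, -1.76 to -0.19 for Mgl2, 0.30 to 0.35 for Msr1 and 1.77 to 2.78 for Marco.

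Without thinning, KO minus WT shares of macrophages with a UMI moved to -4.00 percentage points for Cd163, -3.63 for Lyve1, -1.81 for Cd209f, -16.3 for Cbr2, -17.6 for Mgl2 and 1.13 for Marco, and that of Msr1 turned from 3.01 to -1.12. The setting of at least 1000 UMIs was added after seeing the data. With 2 libraries per genotype and few UMIs of Marco, Lyve1, Cd163 and Cd209f, calls near the threshold turn on single libraries.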

Other observations

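A few barcodes, chosen after their values were seen, passed the cut for the epithelial genes Krt8, Krt18, Krt19 and Epcam but not those for C1q or for T, NK, B, stromal and granulocyte genes. All their UMIs of these 4 genes were of Epcam, and the 3 keratins were at 0. They numbered 10, 17, 0 and 3 in WT 1, WT 2, KO 1 and KO 2. Mgl2 stood at 2112, 1304 and 353 CPM in the 3 libraries that had them, beside Ptprc at 448, 490.03 and 219. H2-Aa, a class II antigen presentation gene, stood at 14185, 11786 and 5256 there.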
